A study of Mus musculus with 10 samples.

Results

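Genes linked to protein aggregation and axonal structure in neurodegeneration were followed across the cell classes of the aged mouse inner ear. They are App, Aplp1 and Aplp2 (the amyloid precursor protein and its relatives), Bace1, Mapt (tau), Sncg (gamma-synuclein), Nefl and Nefm (the light and medium neurofilament chains). They were picked by symbol from the gene list of the count tables, as 8 of 32285 genes, and all 8 were found. The study profiled the cochlea and the vestibular organs of CBA/J mice by droplet single-cell RNA sequencing, in which each captured transcript is counted by a unique molecular identifier (UMI). Its question was how vestibular hair cells (vHCs) and cochlear hair cells (cHCs) age. The 10 libraries analysed here are all from mice aged 22 months, 5 of each organ. The mice were of an inbred strain with no transgene or treatment named, and several animals were pooled in each library. Young libraries were not analysed here, so no value below is a change with age.

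Libraries 1 and 2 of each organ were not separate samples. All 1313 barcodes of cochlear replicate 2, and 1633 of the 1641 of vestibular replicate 2, were also in replicate 1 of the same organ. Their counts differed by less than the sampling noise, so each pair was counted as 1 sample, and n was 4 per organ (replicates 1, 3, 4 and 5). Other pairs of libraries shared at most 41 barcodes. Libraries held 2592425 to 26974948 UMIs in 1130 to 12397 barcodes. The levels below are the UMIs of a gene divided by all UMIs of the cells of a class in a library, scaled to counts per 1000000 (CPM). The tests below use further scaling factors, so a log2 fold change can differ from the ratio of such levels.

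Classes were taken from clusters named by marker genes, and the 8 genes were kept out of the clustering. In the vestibule there were 1502 type I HCs, 275 type II HCs, 552 supporting cells, 87 glia and 3944 stromal cells. In the cochlea there were 73 inner HCs, 77 outer HCs, 1139 supporting cells, 60 glia, 2255 stromal cells and 299 neurons. All 6 HC markers were detected in the HCs of both organs, summing to 2988-3550 CPM in vHCs and 3809-4337 CPM in cHCs. Type I HCs held Adam11 at 794-1308 CPM against 23-105 CPM in type II HCs, and type II HCs held Sox2 at 536-621 CPM against 2.36-9.40 CPM in type I HCs. Supporting-cell markers, Sox2 among them, summed to 792-1037 CPM in type II and 111-150 CPM in type I HCs, and their part in the differences between the types was not tested. Inner HCs held Slc17a8 at 1482-2051 CPM, and outer HCs held Slc26a5 at 1270-2736 CPM. Which subclusters were type I or II, inner or outer was set from these markers after the clusters were seen. All 9 glial markers were detected in the glia of both organs, summing to 22524-26555 CPM in the vestibule and 24489-41085 CPM in the cochlea against 41.1-85.8 CPM in vHCs and 46.9-264 CPM in cHCs. The markers that led the sum were not the same in the 2 organs, and glia are therefore given by organ.

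HCs turn sound and head motion into receptor potentials and pass them to afferent neurons. Type I HCs sit inside a cup-shaped nerve ending, while type II HCs contact button-like endings. The amyloid precursor protein is a membrane protein of many tissues that alpha-secretases cleave within the amyloid peptide, and that Bace1, the beta-secretase, and then the gamma-secretase complex cut to release that peptide. Tau binds and stabilizes microtubules, gamma-synuclein is a small presynaptic and axonal protein of peripheral neurons, and the neurofilament light and medium chains co-assemble with the heavy chain (Nefh) into the filaments that set axon calibre.

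Where the genes lie bears on how their reads can be told apart. On GRCm38 with GENCODE M21, App lies at chr16:84949685-85173766 and Aplp1 at chr7:30434982-30445535, both on the minus strand. Aplp2 (minus) and Bace1 (plus) are on chromosome 9, at chr9:31149557-31211815 and chr9:45838580-45864399. Mapt is at chr11:104231390-104332090 (plus) and Sncg at chr14:34370274-34374789 (minus). Nefl, at chr14:68083863-68089095 on the plus strand, lies wholly inside the annotated span of Nefm, chr14:68082590-68124846 on the minus strand. Of the 2 annotated Nefm transcripts, 1 shares 1108 exonic bases with Nefl and the other shares 0. The libraries were made with a kit that keeps the strand and counted with the standard Cell Ranger pipeline, which by default counts reads in the sense of a gene, and the setting itself is not given in the sources used here. Antisense genes also overlap App, Bace1 and Mapt.

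App and Aplp1 were the members of the amyloid precursor family that were higher in type I than in type II HCs (values below), and their promoters are shown for that reason. RefSeq sequence on GRCm38.p6 gave the 250 bases before the start of each gene, for 4 of the 8 members (App, Aplp1, Aplp2 and Sncg). RefSeq and GENCODE place the starts differently. For App the GENCODE start lies 59 bases farther upstream, inside the window, and for Aplp1 it lies 47 bases downstream of the RefSeq start. The bases before the start in both annotations are printed, which are chr16:85173767-85173957 (191 bases) and chr7:30445583-30445832, on the minus strand and written 5′ to 3′, with the GC box in capitals.
App: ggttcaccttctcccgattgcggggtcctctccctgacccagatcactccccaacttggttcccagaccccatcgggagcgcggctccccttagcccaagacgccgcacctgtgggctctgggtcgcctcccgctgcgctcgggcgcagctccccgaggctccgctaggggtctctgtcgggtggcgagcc
Aplp1: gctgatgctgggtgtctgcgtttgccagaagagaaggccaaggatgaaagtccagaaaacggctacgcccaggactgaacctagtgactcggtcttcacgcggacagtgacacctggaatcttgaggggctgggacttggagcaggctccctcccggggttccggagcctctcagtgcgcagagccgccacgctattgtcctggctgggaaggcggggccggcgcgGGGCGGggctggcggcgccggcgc
Each window of 250 bases held 1 GC box (GGGCGG on either strand), 55 bases before the RefSeq start of App and 24 bases before that of Aplp1. That of App falls in the stretch that GENCODE places inside the gene, and is not printed. Neither window held a CCAAT box (CCAAT) or a TATA box (TATAAA). Of 32851 promoter windows of the same length, 32.7% held the GC box, 33.8% the CCAAT box and 12.4% the TATA box, so a GC box at both genes is a common feature of mouse promoters and a description of these letters only.

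Each comparison was tested over all genes on UMIs summed per library and class (edgeR's quasi-likelihood test, Benjamini-Hochberg adjusted p at 0.05). A gene had to pass a filter on low counts, which a member could pass through its high group alone. Between type I and type II HCs, 5 of the 8 members passed the test, 3 higher and 2 lower in type I, where 17.5% of all 7943 genes tested did so. In vHCs against vestibular supporting cells 7 of 8 passed (5 higher and 2 lower in vHCs, against 59.4% of all genes). Against vestibular glia 7 of 8 passed (5 higher and 2 lower, against 34.4%), and against vestibular stroma 7 of 8 (6 higher and 1 lower, against 65.3%). These last 3 comparisons share their HC sums, and in them a large part of all genes was called, so that the members' counts alone say little.

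In the cochlea fewer members had the counts to be tested. Of the 8, 3 could be tested between inner and outer HCs, and all 3 were lower in inner HCs (32.8% of all genes called). Against cochlear supporting cells 5 were tested and 4 called (3 higher and 1 lower in cHCs, against 43.8%), and against cochlear stroma 5 were tested and 5 called (1 higher and 4 lower, against 50.0%). Between cHCs and vHCs all 8 were tested and 6 called, 1 higher and 5 lower in cHCs, where 30.7% of all genes were called. Bace1 and Mapt, with 5 and 2 UMIs in all cHCs, entered that test through the vHCs, and Bace1 and Sncg entered the test against cochlear stroma through the stroma, so these calls are counted but their size is given below by UMIs. Aplp1, Nefl and Nefm entered the test against cochlear supporting cells through the cHCs, as did Aplp1 the test against cochlear stroma. Cochlear glia gave sums of at least 5 cells in 2 libraries only, and are given as values with no test. The cHC sums mix inner and outer HCs unevenly. Inner and outer HCs numbered 1 and 24 in replicate 1, 48 and 31 in replicate 3, 6 and 8 in replicate 4 and 18 and 14 in replicate 5. The part of this mix in the cHC values was not tested.

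**Figure D1:**
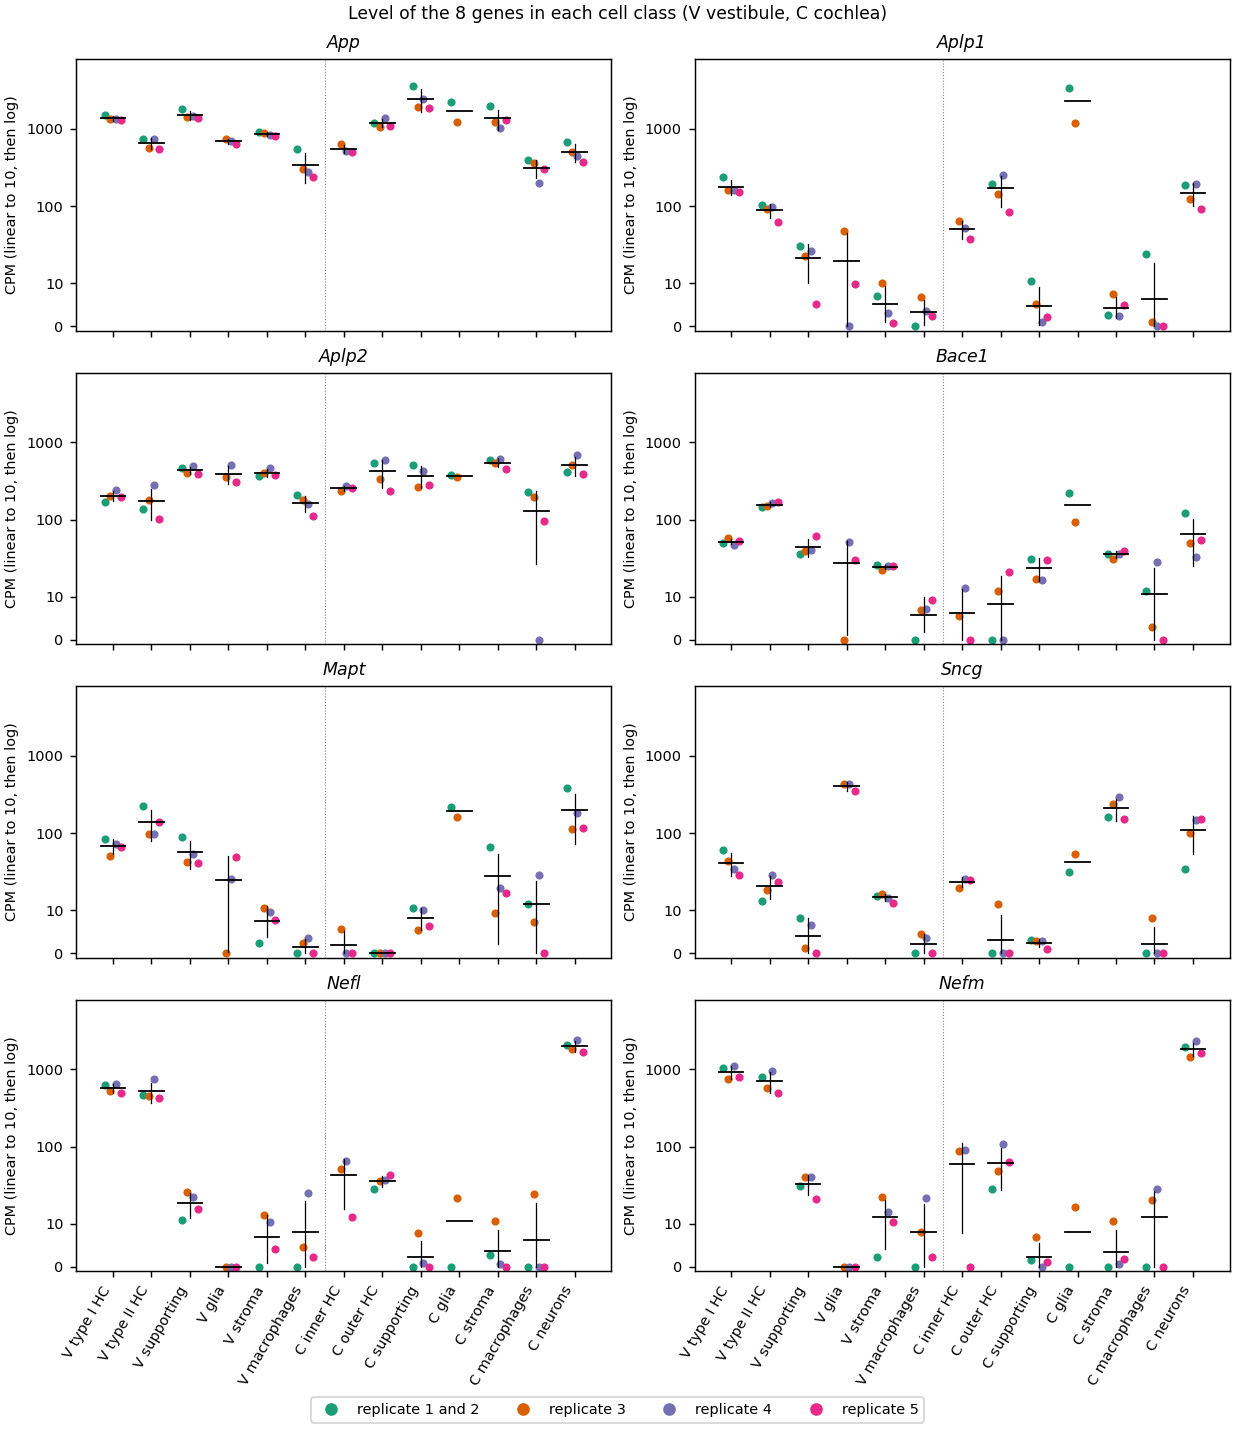
Level of each of the 8 genes in 13 cell classes of the vestibule (V) and the cochlea (C), in CPM on an axis that is linear to 10 and logarithmic above. Points are libraries, horizontal bars the mean and vertical lines the SD, drawn for classes of 3 or more libraries. Nefl and Nefm stand high in cochlear neurons and in both types of vHC, and Mapt is at 0 in the outer HCs of all 4 libraries.

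Neurofilament transcripts were abundant in vHCs and scarce in cHCs. Nefl, the light chain, was at 629.7, 531, 637 and 486 CPM in type I HCs of replicates 1, 3, 4 and 5, and at 459, 447, 739 and 430.4 CPM in type II HCs. The ranges of the types overlapped, and Nefl did not pass the test between them (log2 fold change 0.21, SE 0.17, adjusted p = 0.516). In cHCs as a whole Nefl stood at 25.9, 47.9, 57.1 and 23.5 CPM, against 597, 516, 654 and 474 CPM in vHCs. Every cochlear library lay below every vestibular one (log2 fold change -3.68, SE 0.29, adjusted p = 1.72e-09).

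Nefm, the medium chain, had a similar order of classes. Its levels were 1028, 756, 1112 and 794 CPM in type I HCs and 786, 567, 958 and 489.6 CPM in type II HCs. Nefm was higher in type I HCs within each of the 4 libraries, although the ranges of the types overlapped. The test that took the sums as independent missed the threshold (log2 fold change 0.49, SE 0.19, adjusted p = 0.0828), and with the library as a block, since both types come from the same animals, it passed (0.50, adjusted p = 4.09e-05). In cHCs Nefm stood at 51.8, 79.7, 95.2 and 23.5 CPM and in vHCs at 979.7, 722, 1085 and 726 CPM, again with no overlap (log2 fold change -3.66, SE 0.31, adjusted p = 5.44e-09).

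vHCs also stood far above the cells around them. Vestibular supporting cells held Nefl at 11.1-25.9 CPM and Nefm at 20.7-40.5 CPM, and stroma held them at 0-13.2 and 2.34-22.1 CPM. Against supporting cells vHCs were higher by 4.58 (SE 0.25) for Nefl and 4.44 (SE 0.24) for Nefm on the log2 scale, and against stroma by 5.49 (SE 0.32) and 5.44 (SE 0.31), with adjusted p at most 2.53e-14 and 9.73e-12. No UMI of either gene was found in the sums of vestibular glia, in 3 libraries. Taking 3 counts over the group as the limit (16.5 CPM), Nefl was at least 33.9-fold and Nefm at least 53.2-fold higher in vHCs than in glia.

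The cochlear comparison with supporting cells rested on few reads. The 4 cHC sums held 2, 21, 6 and 3 UMIs of Nefl and 4, 35, 10 and 3 of Nefm. Supporting cells held Nefl at 0, 7.80, 0.928 and 0 CPM, and Nefm at 1.53, 6.86, 0 and 1.04 CPM. In a test that both entered through the cHCs, cHCs were higher by 3.08 (SE 0.64, adjusted p = 0.000641) and 3.84 (SE 0.55, adjusted p = 1.67e-05) on the log2 scale. Replicate 3 held 258 of the 299 cochlear neurons, and also 48 of the 73 inner and 31 of the 77 outer HCs. Without replicate 3, neither gene passed the filter on low counts and no test was possible.

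Nefh, the heavy chain, separated HCs from neurons. Cochlear neurons held Nefl at 2054, 1817, 2393 and 1695 CPM, and 102 to 131 UMIs of Nefh for every 100 of Nefl. vHCs held 1, 1, 2 and 1 UMIs of Nefh in the 4 libraries, which is 0.0535 to 0.212 per 100 UMIs of Nefl. In cHCs Nefh was at 0 in replicates 1, 4 and 5, and in replicate 3 it had 8 UMIs beside 21 of Nefl (38.1 per 100). In that library Nefl was also seen in cochlear macrophages, at 24.7 CPM, which were at 0 in the other 3. Those held 25, 15 and 24 macrophages in replicates 1, 4 and 5, against 322 in replicate 3. The neuron markers summed to 68.4-98.6 CPM in vHCs with Elavl4 and Scg2 at 0, and to 19.1-104 CPM in cHCs with Tubb3, Elavl3, Elavl4 and Scg2 at 0, against 4696-6799 CPM in neurons.

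**Figure D2:**
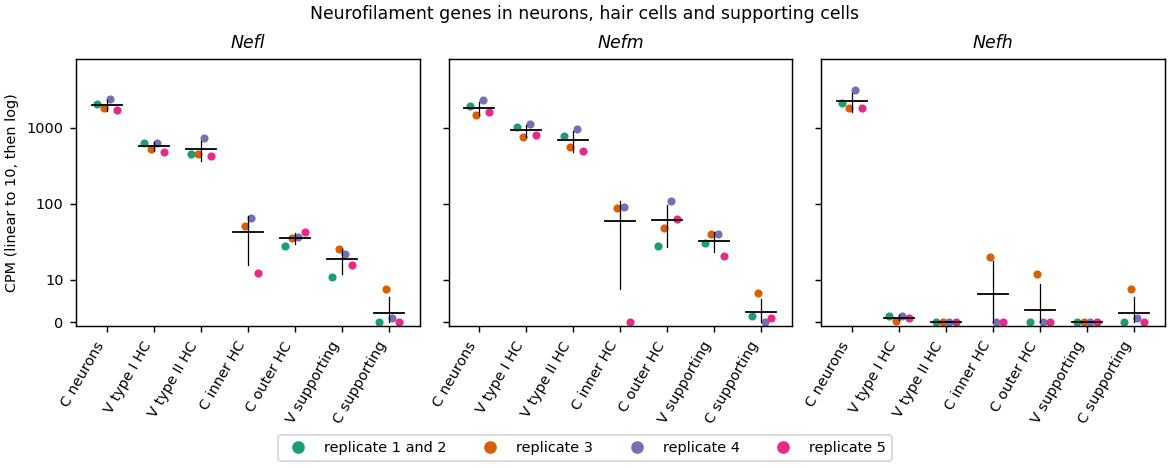
Levels of Nefl, Nefm and Nefh in cochlear neurons, the 4 HC types and the supporting cells of the vestibule (V) and cochlea (C), in CPM on an axis that is linear to 10 and logarithmic above. Points are libraries, horizontal bars means and vertical lines SDs. All 3 chains stand above 1000 CPM in neurons, while in both types of vHC Nefl and Nefm are high and Nefh is at or near 0.

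Most vHCs carried both transcripts. At least 1 UMI of Nefl was seen in 76.2% of type I HCs (exact binomial 95% interval 73.9-78.3%, counting error only) and in 70.9% of type II HCs, against 2.46% of vestibular macrophages, a class that should lack the gene. The median depths of these cells were 3932, 4728 and 2846 UMIs. Thinned to 1000 UMIs per cell, the shares were 39.3%, 32.4% and 1.37%. Nefm was seen in 81.4% of type I and 75.6% of type II HCs and in 3.01% of macrophages. Both genes together were detected in 67.3% of type I HCs, 59.6% of type II HCs and 85.6% of cochlear neurons.

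Among cHCs the share was lower. Both genes were found in 12.3% of the 73 inner and 1.30% of the 77 outer HCs, at median depths of 5693 and 2617 UMIs, and in 1.99% of vestibular and 0% of the 1139 cochlear supporting cells. Nefl alone or with Nefm was seen in 26.0% of inner and 7.79% of outer HCs, against 4.92% of cochlear macrophages (median 2404 UMIs). After thinning these became 2.74%, 1.30% and 2.85%. Nefl was among the 10 genes most enriched in a subcluster of 32 inner HCs with a median of 1790 UMIs. The part of that subcluster in the inner HC share was not tested. Nefm was seen in 30.1% of inner and 11.7% of outer HCs and in 5.18% of cochlear macrophages, and after thinning in 6.85%, 3.90% and 2.59%. After thinning, the share in cHCs was not above that in macrophages for Nefl and was above it for Nefm, a difference that was not tested. The thinned shares of cHCs come from few cells and a single random draw. By level, Nefl stood at 23.5-57.1 CPM in the cHC libraries, and at 0 CPM in cochlear macrophages except in replicate 3 (24.7 CPM). Replicate 3 held 322 of the 386 cochlear macrophages, and replicates 1, 4 and 5 held 25, 15 and 24. Values of 0 from so few cells cannot be told from the levels of cHCs. Nefm stood at 23.5-95.2 CPM in cHCs and at 0-28.5 CPM in cochlear macrophages, which overlap.

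**Figure D3:**
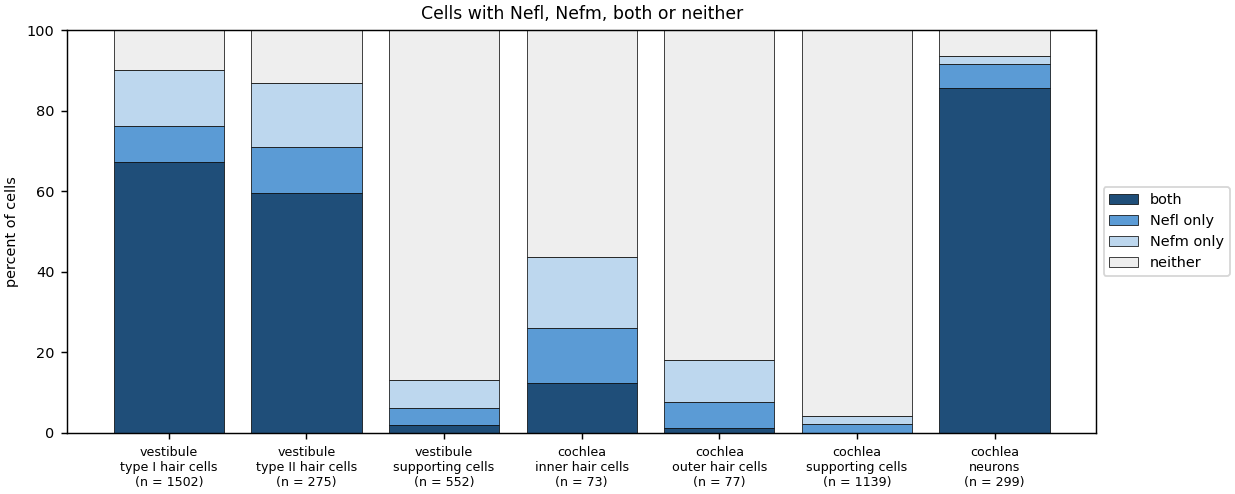
Percent of cells with at least 1 UMI of Nefl, of Nefm, of both or of neither, by class, without thinning, the number of cells standing under each bar. Both transcripts were seen in 67.3% of type I HCs, 59.6% of type II HCs and 85.6% of cochlear neurons, against 12.3% or less in the other classes shown.

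App was widespread, and its order among HC types differed from that of the neurofilaments. Type I HCs held App at 1491, 1337, 1361 and 1285 CPM and type II HCs at 747, 570.2, 736 and 552 CPM. Every type I value lay above every type II value (log2 fold change 1.16, SE 0.16, adjusted p = 5.04e-06). At least 1 UMI was seen in 95.8% of type I and 71.6% of type II HCs, against 51.4% of vestibular macrophages, a type that itself holds App at 240.1-553 CPM.

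In the cochlea App was at 637, 516 and 508 CPM in inner HCs of replicates 3, 4 and 5, and at 1201, 1059, 1386 and 1103 CPM in outer HCs of replicates 1, 3, 4 and 5. Replicate 1 held 1 inner HC and gave no sum. The ranges did not overlap, and inner HCs were lower (log2 fold change -1.16, SE 0.25, adjusted p = 0.000392). With the library as a block, App was the member still called (-1.11, adjusted p = 4.23e-06). The call was lost with no filter on low counts (-0.82, adjusted p = 0.102), in 1 fit over all classes (-0.78, adjusted p = 0.159) and with the mixed clusters kept as HCs, where the difference was close to 0 (-0.05, adjusted p = 0.945).

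Other values moved with the comparison of inner and outer HCs. The 11 stromal markers summed to 401-1824 CPM in outer HCs, with 4 of them (Pou3f4, Col1a1, Col1a2 and Col3a1) at 0, and to 0-149 CPM in inner HCs, with 5 at 0. Of the 73 inner HCs, 32 formed a subcluster with a median of 1790 UMIs led by AY036118 and Gm42418, while the other 41 had a median of 10373 UMIs. The part of these values in the differences of App, Aplp1 and Aplp2 was not tested.

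Cochlear supporting cells held more App than cHCs. They stood at 3585, 1904, 2458 and 1869 CPM against 1165, 718, 743 and 727 CPM in cHCs, with no overlap (log2 fold change -1.82, SE 0.27, adjusted p = 2.65e-05). In the vestibule they stood at 1800, 1409, 1446 and 1362 CPM against 1349, 1200, 1253 and 1121 CPM in vHCs. That difference was smaller (log2 fold change -0.45, SE 0.19, adjusted p = 0.0433) and was lost in 8 of 16 alternatives. These were each of the fits without replicate 3, 4 or 5 (adjusted p 0.0936, 0.0922 and 0.095), a limit of 10% mitochondrial UMIs (-0.15, adjusted p = 0.599), no filter on low counts (-0.30, adjusted p = 0.306), 1 fit over all classes (-0.37, adjusted p = 0.297), mixed clusters kept (-0.37, adjusted p = 0.137) and the deepest cells left out (-0.37, adjusted p = 0.0891). The contrast of HCs with supporting cells differed between the organs for App by -1.41 (SE 0.32, adjusted p = 0.00214), as cochlear minus vestibular.

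Relative to stroma and glia App gave other signs. Cochlear stroma held it at 1949, 1223, 1013 and 1290 CPM, above cHCs (log2 fold change -0.92, SE 0.29, adjusted p = 0.0132), though the call was lost without replicate 3 (adjusted p = 0.0701) or 5 (adjusted p = 0.0958) and with the mixed clusters kept (-0.40, adjusted p = 0.291). Vestibular stroma, at 818-912 CPM, did not pass the test against vHCs (log2 fold change 0.10, SE 0.16, adjusted p = 0.617). Vestibular glia held 643-742 CPM, below vHCs by a log2 fold change of 0.91 (SE 0.23, adjusted p = 0.00175), where the median of all genes tested was 0.41. Cochlear glia held 2200 and 1210 CPM in replicates 1 and 3. Between the HCs of the organs App missed the threshold (log2 fold change -0.55, SE 0.23, adjusted p = 0.0738), and passed it in 4 of 16 alternatives, among them without replicate 1 (-0.68, adjusted p = 0.00322).

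Aplp1, a relative of App that is best known from neurons, marked HCs off from supporting cells and stroma in both organs. Its levels were 235, 162, 164 and 150.1 CPM in type I HCs and 105, 90.9, 96.9 and 62.4 CPM in type II HCs. The types did not overlap (log2 fold change 1.06, SE 0.19, adjusted p = 0.000139). Inner HCs held 64.8, 51.6 and 37.2 CPM in replicates 3, 4 and 5, from 23, 4 and 3 UMIs, and outer HCs 195, 143, 255 and 84.8 CPM. These did not overlap either (log2 fold change -1.58, SE 0.42, adjusted p = 0.00329), but the call was lost without replicate 4 (adjusted p = 0.0539), with no filter on low counts (adjusted p = 0.0645) and in 1 fit over all classes (adjusted p = 0.172), and with the library as a block Aplp1 did not pass the filter.

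In the cells around HCs Aplp1 was nearly absent. Vestibular supporting cells held 5.18-30.5 CPM and stroma 0.696-9.99 CPM, below vHCs by log2 fold changes of 2.59 (SE 0.25) and 4.20 (SE 0.30). In the cochlea both classes held at most 10.7 CPM. In tests that Aplp1 entered through the cHCs, cHCs were higher by 4.06 (SE 0.45) and 3.88 (SE 0.38). All 4 adjusted p were at most 8.12e-07. Vestibular glia held 3 UMIs in all, so that the ratio of vHCs to glia was 9.25 with a counting interval of 3.16 to 44.9. Cochlear glia went the other way, with Aplp1 at 3332 and 1199 CPM from 106 and 221 UMIs, the highest level among the 13 classes. At least 1 UMI was seen in 43.3% of vHCs and 32.7% of cHCs, against 2.19% and 0.777% of macrophages of the same organ.

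Aplp2, the broadly expressed relative, was the member of the family that vHCs held at less than their surroundings. Type I HCs stood at 169, 199.5, 245 and 198 CPM and type II HCs at 138, 180.3, 279.9 and 102 CPM, which overlapped and did not pass the test (log2 fold change 0.27, SE 0.21, adjusted p = 0.466). As a whole vHCs stood at 163, 196, 251 and 177 CPM, below supporting cells at 463, 401, 490.1 and 394 CPM and stroma at 362, 403, 468 and 375 CPM. The log2 fold changes were -1.30 (SE 0.17, adjusted p = 3.65e-07) and -1.45 (SE 0.17, adjusted p = 2.96e-07), and neither pair of groups overlapped. Against vestibular glia the change was -0.84 (SE 0.25, adjusted p = 0.00734), lost in 5 of 16 alternatives, among them without replicate 4 (adjusted p = 0.0682) or 5 (adjusted p = 0.118) and with the mixed clusters kept (-0.40, adjusted p = 0.25).

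In cHCs Aplp2 stood at 518, 253, 352 and 250.2 CPM, higher than in vHCs (log2 fold change 0.75, SE 0.23, adjusted p = 0.015), though the ranges overlapped narrowly and the call was lost in 5 of 16 alternatives, among them without replicate 1 (0.45, adjusted p = 0.0684) and with the mixed clusters kept (0.44, adjusted p = 0.124). The cHC sum of replicate 1, the highest of the 4, held 1 inner and 24 outer HCs, and the part of that mix was not tested. Against cochlear supporting cells, at 515, 266, 424 and 283 CPM, there was no call (-0.42, SE 0.28, adjusted p = 0.234). Cochlear stroma held 593, 534, 611 and 449 CPM, above cHCs (-0.93, SE 0.27, adjusted p = 0.00778), and this was lost without replicate 3, 4 or 5 (adjusted p 0.0802, 0.0597 and 0.0664). Inner HCs, at 234, 271 and 260.1 CPM, overlapped outer HCs, at 544, 333, 584 and 233 CPM. That comparison was called (-0.82, SE 0.30, adjusted p = 0.032) but not with the block (-0.59, adjusted p = 0.137) nor without replicate 1, 3 or 4 (adjusted p 0.163, 0.117 and 0.182), and it was lost in 8 of 14 alternatives in all (adjusted p up to 0.651).

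Aplp1 was also lower in cHCs than in vHCs, by a small margin. cHCs held 181, 79.7, 105 and 54.7 CPM and vHCs 209.8, 149, 152 and 131 CPM, with overlap (log2 fold change -0.71, SE 0.26, adjusted p = 0.0443). The call was lost in 8 of 16 alternatives, among them without replicate 3, 4 or 5 (adjusted p 0.258, 0.100 and 0.154).

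Bace1, the beta-secretase that starts the release of the amyloid peptide from App, ran opposite to App in vHCs. It was at 144, 148, 165 and 168 CPM in type II HCs and at 50.1, 57.2, 47.4 and 52.9 CPM in type I HCs. The groups lay far apart, and the spread within each was small (log2 fold change -1.50, SE 0.17, adjusted p = 2.28e-07). The gene was seen in 44.4% of type II and 18.4% of type I HCs, and after thinning to 1000 UMIs in 12.4% and 5.06%, against 0.546% of vestibular macrophages. All 16 alternative settings kept this call.

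cHCs held almost no Bace1. The sums of the 4 libraries held 0, 3, 1 and 1 UMIs, which is 0, 6.84, 9.52 and 7.82 CPM, against 69.5, 73.5, 67.7 and 78.5 CPM in vHCs. The organs did not overlap, and by UMIs the ratio of vHCs to cHCs was 10.9 with a counting interval of 4.64 to 33.7. Of the 150 cHCs 3.33% had a UMI of Bace1 (interval 1.09-7.61%), and 1.30% of cochlear macrophages did (0.422-3.00%), so that a level above background was not detectable at this depth. Cochlear stroma held 35.7, 30.7, 36.3 and 39.3 CPM, and by UMIs its ratio to cHCs was 5.02 with a counting interval of 2.13 to 15.6.

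Around vHCs Bace1 was lower than in the vHCs taken as a whole. Type I HCs, at 47.4-57.2 CPM, overlapped supporting cells, while type II HCs, at 144-168 CPM, lay above them. Each type alone was not tested against these cells. Vestibular supporting cells held 36.0, 39.4, 39.9 and 62.2 CPM (log2 fold change 0.62, SE 0.21, adjusted p = 0.0115), a call lost without replicate 3 (0.53, adjusted p = 0.132). Stroma held 22.3-25.7 CPM (log2 fold change 1.15, SE 0.15, adjusted p = 1.6e-06). In vestibular glia 0, 2 and 3 UMIs were counted. vHCs were called higher (1.46, SE 0.57, adjusted p = 0.0427), but not with the library as a block (1.56, adjusted p = 0.0524), nor without replicate 3 (1.03, adjusted p = 0.222) or 5 (1.86, adjusted p = 0.121), and the call was lost in 6 of 16 alternatives in all. Cochlear glia held 220.0 and 92.2 CPM, from 7 and 17 UMIs.

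Mapt, which encodes tau, shared the order of Bace1 in vHCs. Type II HCs held 223, 97.1, 96.9 and 138 CPM and type I HCs 84.6, 50.1, 72.2 and 66.1 CPM. The groups did not overlap (log2 fold change -0.88, SE 0.22, adjusted p = 0.00548), and the adjusted p rose to 0.0562 without replicate 5 and to 0.0807 in 1 fit over all classes. The share of cells with a UMI was 34.6% in type II and 18.6% in type I HCs, and 12.4% and 6.39% after thinning, against 0.820% and 0% of vestibular macrophages.

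In cHCs tau transcripts were at the level of background. Replicate 3 gave 2 UMIs and the others 0, against 111, 58.5, 76.4 and 82.2 CPM in vHCs. By UMIs the ratio of vHCs to cHCs was 27.1 with a counting interval of 7.47 to 225. In outer HCs 0 of 77 cells had a UMI, at a median depth of 2617 UMIs. A count of 0 allows a share of up to 3.90% of cells with a UMI, and sets no limit on cells that hold the transcript below that depth. In inner HCs 2.74% had a UMI, against 2.33% of cochlear macrophages.

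Within the vestibule Mapt was also found in supporting cells. They held 88.6, 42.8, 53.2 and 41.4 CPM, and vHCs did not pass the test against them (log2 fold change 0.35, SE 0.23, adjusted p = 0.199). Stroma held 2.34-10.8 CPM (log2 fold change 2.70, SE 0.26, adjusted p = 1.3e-08). Glia held 0, 1 and 5 UMIs, which did not pass (1.33, SE 0.57, adjusted p = 0.0658), and passed in 4 of 16 alternatives, among them without replicate 5 (3.00, adjusted p = 0.0462). Cochlear neurons held 380, 114, 181 and 116 CPM, and cochlear glia 220.0 and 163 CPM. Within the cochlear stroma Mapt stood at 38.5-128 CPM in a cluster of 302 cells led by Fxyd2 and Otos (cluster 9), and at no more than 8.65 CPM in the other 4 stromal clusters.

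**Figure D4:**
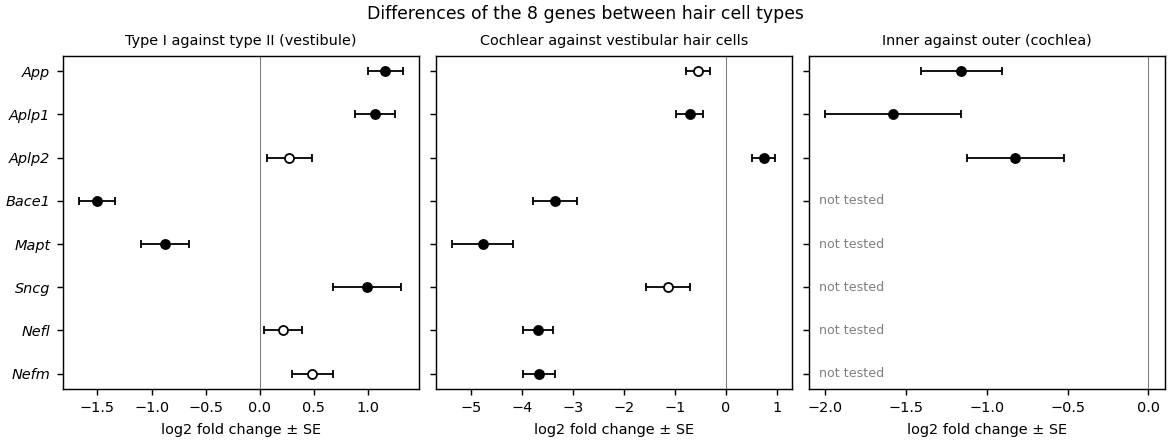
Log2 fold change of each gene with its SE, between type I and type II HCs, between cHCs and vHCs, and between inner and outer HCs. Filled points passed the test at an adjusted p of 0.05, open points did not, and genes marked as not tested did not pass the filter on low counts. App and Aplp1 lie to the right and Bace1 and Mapt to the left in the first panel, and Bace1, Mapt, Nefl and Nefm lie beyond -3 in the second.

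Sncg had its highest levels outside the sensory epithelium. Vestibular glia held gamma-synuclein transcripts at 431, 437 and 346 CPM in replicates 3, 4 and 5, and vHCs at 50.6, 38.9, 32.9 and 27.1 CPM in replicates 1, 3, 4 and 5. The groups were far apart (log2 fold change -3.34, SE 0.28, adjusted p = 9.46e-14). A UMI of Sncg was seen in 44.8% of these glia (interval 34.1-55.9%) at a median depth of 1883 UMIs, and in 1.37% of vestibular macrophages at 2846 UMIs.

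Among vHCs, type I held Sncg at 59.5, 43.4, 33.8 and 28.3 CPM and type II at 13.1, 18.5, 28.7 and 23.0 CPM. The ranges overlapped by a narrow margin. The difference passed the test (log2 fold change 0.99, SE 0.31, adjusted p = 0.0288) and was lost without replicate 1 (0.79, adjusted p = 0.0903), without replicate 3 (0.83, adjusted p = 0.27) and with the DESeq2 Wald test (1.02, adjusted p = 0.0794). Vestibular supporting cells held 8.31, 1.12, 6.65 and 0 CPM, from 7 UMIs in all. In a test that Sncg entered through the vHCs, vHCs were higher (log2 fold change 3.09, SE 0.45, adjusted p = 1.74e-06). Stroma held 12.5-16.4 CPM, also below vHCs (log2 fold change 0.85, SE 0.21, adjusted p = 0.00122).

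Sncg was also abundant in the cochlear stroma. It stood there at 159, 238, 296 and 152 CPM, while cHCs held 0, 8, 2 and 2 UMIs. By UMIs the ratio of stroma to cHCs was 14.4 with a counting interval of 8.22 to 27.9. The level was uneven among stromal clusters. A cluster of 233 cells led by Otor, Emilin2 and Emcn held 384 CPM on average (range 271-449 over 4 libraries), and another of 653 cells held 291 CPM (247-365). In the other 3 the mean was 101, 40.0 and 29.1 CPM. These clusters were compared as values only, and the first was also the deepest, at a median of 11410 UMIs per cell.

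**Figure D5:**
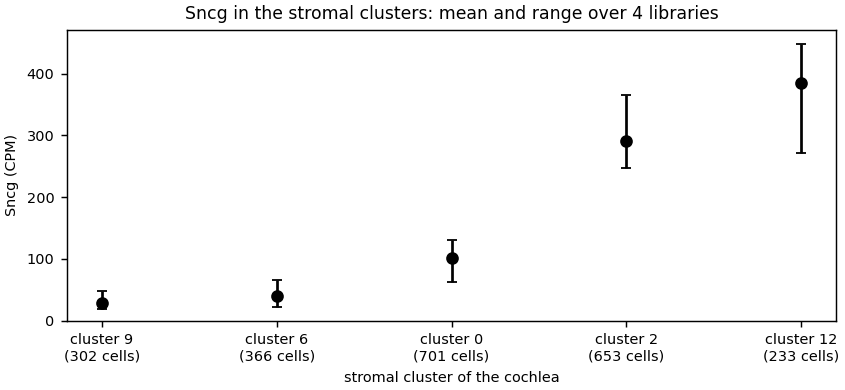
Sncg in the 5 stromal clusters of the cochlea, as the mean (points) and range (lines) of CPM over 4 libraries, with the number of cells of each cluster on the x axis. Clusters 2 and 12 stand at 247 CPM or more in every library and clusters 6 and 9 at 66.2 CPM or less.

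Cochlear neurons held Sncg at 34.5, 99.9, 148 and 154 CPM, and cochlear supporting cells at no more than 3.06 CPM. Between the organs, HCs did not pass the test for Sncg (log2 fold change -1.13, SE 0.43, adjusted p = 0.0511). They passed in 4 of 16 alternatives, with DESeq2's size factors (-1.20, adjusted p = 0.037), no filter on low counts (-1.24, adjusted p = 0.0275), 1 fit over all classes (-1.28, adjusted p = 0.0499) and the mixed clusters kept (-1.29, adjusted p = 0.00282), and cHCs held 12 UMIs in all.

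The contrast of HCs with their surroundings was also compared between the organs, by an interaction term. In HCs against stroma 6 of the 8 members were called (App, Bace1, Mapt, Sncg, Nefl and Nefm), where 18.1% of all genes were. Mapt, Nefl and Nefm had too few UMIs to be tested between cHCs and cochlear stroma, and Bace1 and Sncg were tested there through the stroma, so that these 5 entered through the groups where they are high and their calls are not ranked. App had ample counts in all groups, and cHCs stood lower relative to stroma than vHCs did (cochlear minus vestibular -0.99, SE 0.32, adjusted p = 0.0275). None of the interaction terms was refitted under the alternatives. Under these, the call of App between cHCs and cochlear stroma was lost without replicate 3 or 5 and with the mixed clusters kept. In HCs against supporting cells App and Bace1, the latter with 5 UMIs in all cHCs, were called, where 17.0% of all genes were. Aplp1 and Aplp2 passed in neither.

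Beyond the members, 44 other genes of the same pathways were followed as a list: secretases, binding partners of App, peptide-degrading enzymes, microtubule-associated proteins and tau kinases, other synucleins and intermediate filaments, and other neurodegeneration genes that the study names. In vHCs against supporting cells 34 were tested, 5 were higher and 18 lower, with a median log2 fold change of -0.67, against 0.07 over all genes. Against vestibular stroma 37 were tested, 7 higher and 16 lower (median -0.30 against 0.03), and against vestibular glia 34 were tested, 6 higher and 7 lower (0.28 against 0.41). In cHCs 31 were tested against supporting cells, 6 higher and 12 lower (-0.55 against -0.10), and 27 against stroma, 6 higher and 8 lower (0.12 against -0.09).

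The secretase group, with Adam10, Adam17 and Bace2 and the gamma-secretase subunits, had more genes lower than higher in vHCs. Of its 10 genes, 8 of 9 tested were lower in vHCs than in supporting cells, where 2671 of all 9188 genes tested were, and 8 of 10 lower than in stroma, where 3515 of 11015 were. In cHCs 4 of 9 were lower than in supporting cells (1749 of 6857 of all genes) and 1 of 5 lower than in stroma (1719 of 6166). Adam10, an alpha-secretase, was lower in vHCs than in supporting cells (log2 fold change -2.09, SE 0.20). Bace2, a relative of Bace1, stood at 0.501 CPM on average in vHCs against 25.7 CPM in vestibular stroma (log2 fold change -5.30, SE 0.42), and at 12.0 CPM in cHCs against 92.4 CPM in cochlear supporting cells (-3.49, SE 0.50).

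Among binding partners of App, Apba1, a neuronal adaptor, was higher in HCs of both organs. It was at 457-985 CPM in cHCs and at 409-736 CPM in vHCs, and was higher than in supporting cells by log2 fold changes of 8.29 (SE 0.46) and 4.02 (SE 0.26), and than in stroma by 8.06 (SE 0.43) and 5.15 (SE 0.25). The receptors Sorl1 and Lrp1, which sort or take up App, were lower in HCs than in some of the other classes. Sorl1 was lower than in supporting cells of the vestibule (-5.42, SE 0.21) and cochlea (-3.08, SE 0.36). Against vestibular stroma it did not pass the test (-0.30, SE 0.29), and against cochlear stroma it was not tested, with cHCs at 63.7 CPM on average (range 23.5-129.5) and stroma at 6.55 CPM (3.45-8.23). Lrp1 was lower than in stroma of the vestibule (-6.08, SE 0.23) and cochlea (-6.27, SE 0.44). Itm2b was lower in vHCs than in supporting cells (-3.27, SE 0.24) and stroma (-2.14, SE 0.18). Among the peptide-degrading enzymes, Ece1 was lower in vHCs than in supporting cells (-4.37, SE 0.30), and Mme and Ece1 had 2 UMIs each in all cHCs. Ide, the insulin-degrading enzyme, was higher in cHCs than in supporting cells (1.20, SE 0.26).

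Of 8 microtubule-associated proteins and tau kinases tested between cHCs and vHCs, 1 was higher and 2 were lower in cHCs, where 30.7% of all genes were called. Map1b was higher in vHCs than in supporting cells (3.31, SE 0.22) and stroma (3.33, SE 0.17), and lower in cHCs than in vHCs (-2.59, SE 0.25). Map2 was higher in cHCs than in cochlear stroma (4.42, SE 0.30) and than in vHCs (2.81, SE 0.26). Between cHCs and vHCs 28 genes of the list were tested, 9 higher and 2 lower in cHCs (median 0.32 against -0.06), against 30.7% of all genes called. Sorl1 (2.34, SE 0.37) and Apbb2 (1.95, SE 0.31) were among the higher. Mark1, a tau kinase with 3 UMIs in cHCs, was lower, as was Map1b. The intermediate filament Ina had 144 UMIs in vHCs and 1 in vestibular supporting cells, and was called against them and against stroma (4.03, SE 0.43).

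Between type I and type II HCs 27 genes of the list were tested, in a comparison where 17.5% of all genes were called. Aph1b, a gamma-secretase subunit, was higher in type I HCs (1.13, SE 0.29), and 4 were higher in type II HCs, among them Map2 (-2.11, SE 0.28), C9orf72 (-1.34, SE 0.20) and Map4 (-1.24, SE 0.28). The median was -0.01 against 0.01 over all genes. Of 9 tested between inner and outer HCs, Itm2b was higher in inner HCs (1.21, SE 0.27), where 32.8% of all genes were called. C9orf72 was also higher in cHCs than in supporting cells (2.21, SE 0.33) and stroma (2.53, SE 0.34). Against vestibular glia, Apba1 (2 UMIs in glia), Map2 and Ina (0 UMIs each) were called higher in vHCs, and Mme (-4.91, SE 0.38), Lrp1 (-4.32, SE 0.45) and Adam10 (-3.54, SE 0.31) lower.

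Ordered by mean level over the 13 classes, most neighbours of a gene overlapped in their libraries. Of the 12 neighbouring pairs, 10 overlapped for App, 10 for Aplp1, 11 for Aplp2, 12 for Bace1, 11 for Mapt, 9 for Sncg, 9 for Nefl and 10 for Nefm. Nefl fell in steps from cochlear neurons at 1990 ± 307 CPM (SD, n = 4) to type I HCs at 571 ± 74.2 CPM (SD, n = 4), and from type II HCs at 519 ± 147 CPM (SD, n = 4) to inner HCs at 42.5 ± 27.0 CPM (SD, n = 3). Nefm stepped down at the same points, from neurons at 1827 ± 363 CPM (SD, n = 4) to type I HCs at 922 ± 174 CPM (SD, n = 4). Sncg stepped from vestibular glia at 405 ± 50.7 CPM (SD, n = 3) to cochlear stroma at 211 ± 68.6 CPM (SD, n = 4). App was first in cochlear supporting cells, at 2454 ± 801 CPM (SD, n = 4), and Bace1 first in type II HCs, at 156 ± 11.9 CPM (SD, n = 4), level with cochlear glia.

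Likeness between genes was measured as Pearson's r of log2(mean CPM + 1) over the 13 classes, which share libraries and depths and are not independent, so that r is a description. Nefl and Nefm had an r of 0.99 with each other, while 1 Nefm transcript, on the other strand, shares exonic bases with Nefl, and Bace1 and Mapt an r of 0.93. Outside the members, the genes most like App were Plat (r = 0.91) and Tvp23b (r = 0.87), and those most like Aplp1 were Mtif2 (r = 0.93) and Tmem28 (r = 0.92). Aplp2 was nearest to Hibadh (r = 0.87), Sncg to Cbx6 (r = 0.92) and Ehbp1 (r = 0.92). Zfp780b and Kndc1 led for both Bace1 (r = 0.93 and 0.92) and Mapt (r = 0.90 and 0.90). Hspbp1 (r = 0.95) was nearest to Nefl, and Disp2 (r = 0.95) to Nefm.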

How the data were processed

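The authors counted UMIs per gene and barcode with Cell Ranger on mm10 and deposited these counts, raw and not normalized, for barcodes called as cells. The labels name version 6.1.2, which stands in the matrix headers of replicates 3, 4 and 5, whereas replicates 1 and 2 carry 5.0.1. A barcode was kept if it had 200 or more genes, 1000 or more UMIs and a mitochondrial share below 25%, which left 549 to 5438 cells per library with 1959993 to 20118973 UMIs. No doublet caller was run. In Seurat 5.3.0 (R 4.3.3) each organ was clustered without integration on 2000 variable genes, from which the members and the pathway list were removed, with 30 components at resolution 1, and HCs again at 0.5. A class needed 3 markers seen in at least 25% of cells with a log2 fold of at least 1. No vestibular cluster was named as neurons. Clusters that carried HC markers with those of supporting cells or stroma (72 cochlear and 500 vestibular cells) were set aside, a rule set after the clusters were seen.

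UMIs were summed per library and class with at least 5 cells, and tests needed 3 sums per class. Sums of replicates 1 and 2 were averaged and rounded, and cells and shares are those of replicate 1. Tests used edgeR 4.0.16 (TMM factors, filterByExpr, quasi-likelihood F test, Benjamini-Hochberg at 0.05) over all genes, and the SE is the size of the log2 fold change divided by the square root of F. The interaction terms were added after the data were seen, and were not refitted under the alternatives. Classes of 1 library come from the same animals, so the library pairs them, and correlations of deviations from the class means were 0.00138 to 0.306. Between the organs they were 0.0365 to 0.114, and the numbers were not taken as pairs. On simulated counts for type I against type II HCs over 7943 genes, 61.0% of genes changed by 1 and 100% of those changed by 2 on the log2 scale were recovered. For inner against outer HCs over 1532 genes these shares were 65% and 100%. For cHCs against cochlear supporting cells over 6857 genes they were 25% and 92%. In the simulations only a small part of the genes was changed, whereas 43.8% of all genes were called in the data of this last comparison. The shares recovered therefore need not hold for the data, where smaller changes could still be missed. A limit of 3 counts was used for zeros. Intervals and limits cover counting error only.

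The members, marker lists and pathway list were chosen with earlier results of these data known. All 8 members are named in each comparison, with up to 3 genes of the pathway list in each direction that passed with the largest change. Genes most like a member were taken among those with at least 10 CPM in 1 class. Alternatives were DESeq2 1.42.0, its size factors, no count filter, 1 fit over all classes, a replicate block, other cell limits and resolutions, and leaving out each replicate. Cochlear glia could not be tested, as they had sums in 2 libraries only. Cochlear neurons and macrophages and the single stromal clusters were added as values after seeing the data. Levels of some single glial markers are not reported here.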

Additional observations from a re-analysis of the deposited data

Results flagged for a closer look

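Within groups of 4 libraries, 10 of the 80 class and gene combinations tested held a value far from the others. Chance alone flags about 1 in 20 for normally spread values, a rate that does not hold for counts near 0. A single library with a UMI beside others at 0 is always flagged. This was so for Sncg in cochlear macrophages and outer HCs and for Nefl in cochlear macrophages. Replicate 1 stood high for Aplp1 in cochlear macrophages (24.0 CPM) and in type I HCs (235 CPM). Replicate 3, the largest cochlear library and the source of most of its neurons, stood high for Sncg in cochlear macrophages (8.22 CPM) and outer HCs (11.9 CPM, 1 UMI), for Nefl in cochlear macrophages (24.7 CPM) and supporting cells (7.80 CPM), and for Nefm in cochlear stroma (10.9 CPM). Replicate 4 stood high for Nefl in type II HCs (739 CPM). Replicate 5 stood high for Bace1 in vestibular supporting cells (62.2 CPM, 12 UMIs) and low for Sncg in cochlear supporting cells (1.04 CPM, 1 UMI).

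For 8 contrasts the organs differed by an interaction term, given as cochlea minus vestibule on the log2 scale. In HCs against stroma these were App (-0.99, SE 0.32), Bace1 (-3.67, SE 0.45), Mapt (-5.64, SE 0.94), Sncg (-4.76, SE 0.48), Nefl (-2.80, SE 0.76) and Nefm (-2.12, SE 0.68). In HCs against supporting cells they were App (-1.41, SE 0.32) and Bace1 (-2.59, SE 0.57). For Mapt, cHCs held 2 UMIs in all, and against stroma Bace1, Mapt, Sncg, Nefl and Nefm entered through the groups where they are high.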

How the results depend on the processing

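Of 834 recomputed log2 fold changes of members, 761 kept direction and side of the threshold, 58 lost and 15 gained a call, and 0 reversed; 36 of 53 results kept their side under every alternative run. Inner against outer HCs depended most on the settings: 817 genes and 0 members were called with no count filter, 807 and 0 in 1 fit over all classes, 162 and 1 under a limit of 10% mitochondrial UMIs, and 1 member with mixed clusters kept as HCs (chosen after seeing the data). Its members numbered 1 to 3 without each replicate, and a minimum of 20 cells left too few sums to run. cHCs against supporting cells gave 4532 genes with no filter, and 2 to 4 members without each replicate (2 without replicate 3). cHCs against stroma gave 5393 genes with no filter, 4671 with the DESeq2 Wald test, 5193 in 1 fit, and 1644 genes and 3 members at the 10% limit. Without each replicate these were 1864 to 4588 genes and 2 to 5 members. Gene counts without each replicate ran from 853 to 1476 between the vHC types, 1911 to 3185 for vHCs against glia and 1529 to 2833 between the organs (1433 at the 10% limit). Lowest values came without replicate 3, except replicate 5 for glia.

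With a replicate block, 6 members were called between the vHC types (1972 genes) and 1 between inner and outer HCs (462 genes), and beyond the calls named above it changed no other within an organ. Between the organs, where the numbers were not taken as pairs, the block gave 2214 genes and 7 members, App included (-0.56, adjusted p = 0.0295).

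Medians in place of means left all 96 levels within 1 SD. DESeq2's size factors moved the median of all genes in vHCs against glia by 0.13 on the log2 scale, and by less elsewhere. This compared sets of scaling factors with each other, and no fit was run without such factors. cHC sums were shallow: members with few UMIs there could not be tested, and thinning to 1000 UMIs moved 69 of 96 shares.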
